A study of Mus musculus with 8 samples.

Results

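Aminoacyl-tRNA synthetases join each amino acid to its transfer RNA, the step that supplies the ribosome with charged tRNA. Mammalian cells hold separate enzymes for the cytosol and for the mitochondrial matrix, nearly all of them encoded in the nucleus by different genes, and the symbols of the mitochondrial genes end in 2. Growing and dividing cells need much charged tRNA, and part of the cytosolic set belongs to the amino acid response driven by the transcription factor ATF4. The genes were chosen by name, as 37 synthetase genes of the cytosol and the mitochondrion, and 35 of them, 19 cytosolic and 16 mitochondrial, had a probe set that the platform annotation gives to a single gene, among 22180 genes in all. Aars and Dars, the cytosolic alanine and aspartate enzymes, had none and were not analysed here.

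Kidneys of 8 mouse embryos of 1 litter were collected at E14.5, and both kidneys of an embryo were pooled before RNA was extracted. In 4 embryos Grb2 had been deleted in the ureteric bud (genotype Grb2 UB-cKO, called Grb2_cKO here), and 4 were wild-type controls. Grb2 encodes an adaptor that carries signals from receptor tyrosine kinases to RAS. The sources used here name neither the strain nor the Cre line that drives the deletion, and RNA came from all cells of the organ, so fewer cells of a type and less RNA per cell cannot be told apart. Values are the deposited log2 values of 1-colour arrays, so a difference of 1 is a doubling, and an adjusted p is from limma's moderated test with Benjamini-Hochberg adjustment over all 22180 genes, called at 0.05.

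Array medians ran from 6.61 to 6.72. The deleted gene, Grb2, stood at 8.65 ± 0.03 in controls and 8.20 ± 0.12 in Grb2_cKO (SD, n = 4 each), a log2 fold change of -0.45 with no overlap. Averaged over Eif2s3y, Kdm5d and Uty, the Y-linked level was 9.94 to 10.1 in the 4 Grb2_cKO embryos and 9.94 in control replicate 3, while the other 3 controls were at 4.09 to 4.24, so genotype and sex-linked expression moved together in all but 1 control. Results are therefore also given from a fit that takes this Y-linked level as a covariate, in which the change rests mainly on control replicate 3. Grb2 itself was called lower without the covariate, and with it stood at -0.40 and did not pass. None of the 35 synthetase genes lies on the X or Y chromosome in the RefSeq table.

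Synthetase genes moved down, with a larger share of calls in the cytosolic list than in the mitochondrial one, a difference between lists that was not tested. Of the 35 genes, 22 fell and 0 rose (26 and 0 at an unadjusted p under 0.05 in limma), where 14.3% of all genes fell and 13.7% rose. In the cytosolic list 17 of 19 fell, with a median log2 fold change of -0.49 over the 19. In the mitochondrial list 5 of 16 fell, with a median of -0.12 over the 16, and the median of all 22180 genes was 0.0058. All called changes were modest, from 1.15-fold to 1.57-fold lower.

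**Figure D1:**
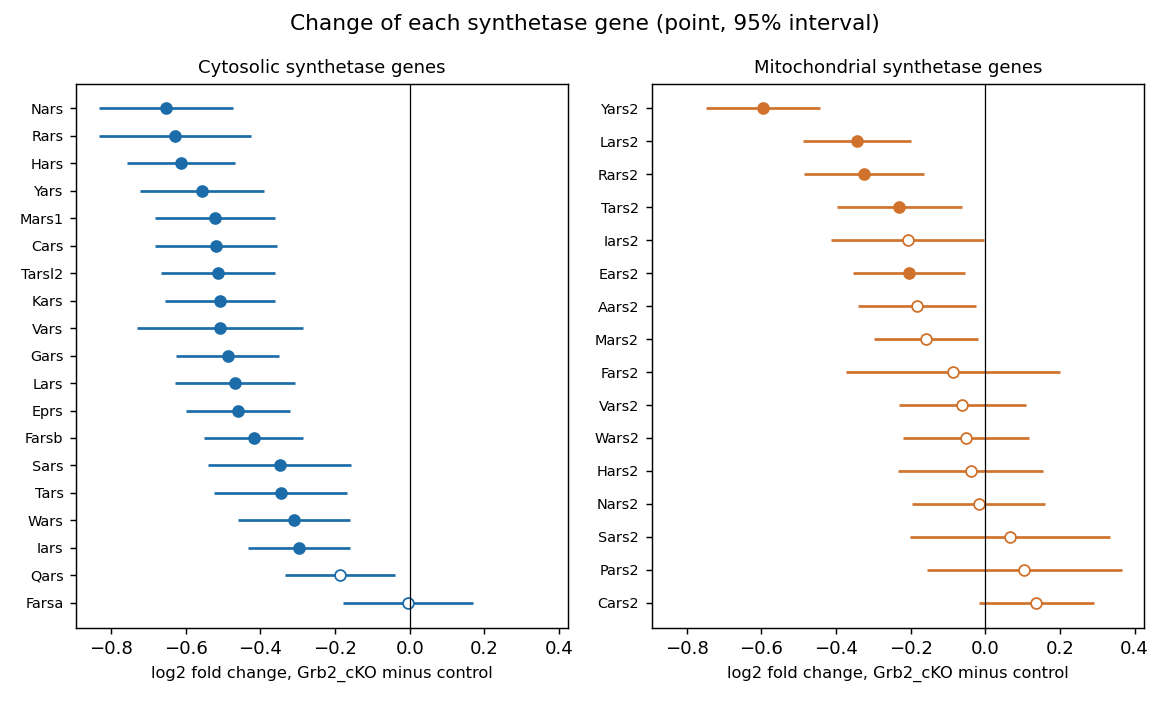
Log2 fold change (Grb2_cKO minus control, x axis) of each synthetase gene with its 95% interval from limma, cytosolic genes on the left and mitochondrial genes on the right, 4 embryos per group. Filled points passed an adjusted p of 0.05: 17 of 19 cytosolic genes and 5 of 16 mitochondrial genes, all of them below 0.

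All 4 Grb2_cKO embryos lay below all 4 controls for 18 of 19 cytosolic and 7 of 16 mitochondrial genes, as for 16.0% of all genes. No synthetase gene had all Grb2_cKO embryos above the controls, against 15.2% of all genes. Averaged over the 19 cytosolic genes, the level ranged over 10.07 to 10.12 among controls and over 9.63 to 9.71 among Grb2_cKO embryos. Averaged over the 16 mitochondrial genes, it was 8.67 to 8.73 and 8.51 to 8.61. Both averages were therefore lower in every Grb2_cKO embryo than in any control.

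With the Y-linked covariate 8 of the 35 genes were lower (7 cytosolic and 1 mitochondrial) and 0 higher in limma, where 2.76% of all genes were lower and 2.85% higher. These 8 are among the 22 called without it, and of all genes called lower without it 18.9% (602 of 3179) passed with it. All 22 kept their sign, as did 3178 of the 3179 genes called lower in all. The medians were then -0.45 for the cytosolic and -0.10 for the mitochondrial list, and the median SE over the 35 genes went from 0.072 to 0.122. Control replicate 3 was above all 4 Grb2_cKO embryos for each of the 22 lower genes, as it was for 98.1% of all genes called lower. That embryo was itself among the controls in those calls.

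Nars, which charges tRNA with asparagine, fell most among the 35. It stood at 11.33, 11.30, 11.10 and 11.08 in the controls and at 10.56, 10.60, 10.59 and 10.45 in the Grb2_cKO embryos. The lowest control was 0.486 above the highest Grb2_cKO embryo. Nars thus changed by -0.65 (SE 0.08, 95% interval -0.83 to -0.47, adjusted p = 0.000389), which leaves 63.6% of the control level. It also passed with the covariate, at -0.54 (adjusted p = 0.0456).

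Rars, the arginine enzyme, stood at 11.50, 11.39, 11.15 and 11.18 in the controls and at 10.75, 10.72, 10.64 and 10.60 in Grb2_cKO. As for Nars, control replicates 1 and 2 were above replicates 3 and 4, and all were above every Grb2_cKO embryo. Its change was -0.63 (SE 0.09, adjusted p = 0.000836). With the covariate it was -0.47 and missed the threshold (adjusted p = 0.0864).

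Hars, the histidine enzyme, had the smallest adjusted p of the set. Its controls were at 9.83, 9.74, 9.73 and 9.72, and the Grb2_cKO embryos at 9.21, 9.19, 9.07 and 9.10. The change of -0.61 (SE 0.07, adjusted p = 0.000207) leaves 65.4% of the control level, and the distance between the groups was 0.515. With the covariate it was -0.58 (adjusted p = 0.024).

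Yars, the tyrosine enzyme, was at 9.98, 10.02, 10.05 and 10.13 in controls and at 9.58, 9.37, 9.58 and 9.42 in Grb2_cKO. Its change was -0.56 (SE 0.07, adjusted p = 0.000567). Mars1, the methionine enzyme that also charges the initiator tRNA (Mars in older annotation), was at 9.33, 9.41, 9.50 and 9.55 against 9.02, 8.89, 8.90 and 8.89. These are separate groups for both genes, with changes that stayed past the threshold with the covariate (-0.56 and -0.58, adjusted p = 0.0409 and 0.0316). Mars1 changed by -0.52 (SE 0.07, adjusted p = 0.000654).

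Cars, which charges cysteine, fell from 8.88 ± 0.07 to 8.36 ± 0.10 (SD, n = 4 each), and Gars, the glycine enzyme whose gene also serves the mitochondrion, from 10.37 ± 0.05 to 9.88 ± 0.04. Both passed with the covariate (-0.53 and -0.45, adjusted p = 0.0443 and 0.0447). Kars, the lysine enzyme and likewise made in a mitochondrial form, fell from 10.83 ± 0.06 to 10.33 ± 0.06. Its change was -0.51, and -0.45 with the covariate (adjusted p = 0.052). Tarsl2, a threonine enzyme related to Tars, fell by 0.51 (SE 0.07, adjusted p = 0.000554) and stood at -0.45 with the covariate (adjusted p = 0.0559).

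Vars, the valine enzyme, differed among embryos more than most. The controls were at 9.73, 9.84, 10.04 and 10.10, and Grb2_cKO replicate 1, at 9.60, lay above the other Grb2_cKO embryos at 9.36, 9.36 and 9.37. The groups were still separate, by 0.131, and the change was -0.51 (SE 0.10, adjusted p = 0.00403). With the covariate Vars stood at -0.62 (adjusted p = 0.0593).

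The remaining called cytosolic genes fell by 0.30 to 0.47 on the log2 scale. Lars, the leucine enzyme, changed by -0.47 (SE 0.07) and Eprs, which joins the glutamate and proline enzymes in a single protein, by -0.46 (SE 0.06). Sars, the serine enzyme, and Tars, the threonine enzyme, each changed by -0.35 (SE 0.09 and 0.08, adjusted p = 0.0127 and 0.00926). Wars, the tryptophan enzyme, changed by -0.31 (SE 0.07) and Iars, the isoleucine enzyme, by -0.30 (SE 0.06). Of these 6 genes only Eprs passed with the covariate, at -0.50 (adjusted p = 0.0346), and the other adjusted p-values ran from 0.118 for Lars to 0.378 for Tars.

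**Figure D2:**
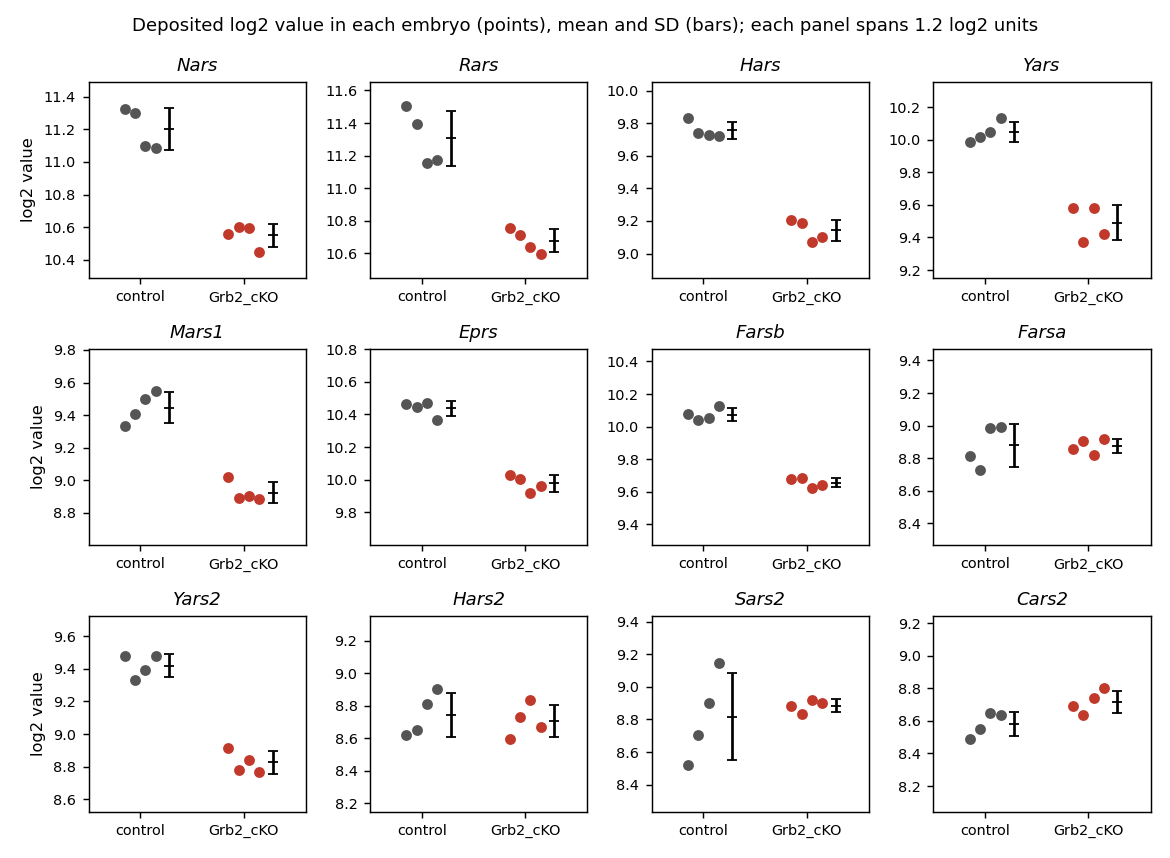
Deposited log2 value (y axis) of 12 synthetase genes in each control (grey) and Grb2_cKO (red) embryo, with mean and SD beside the points; every panel spans the same 1.2 log2 units. The groups are separate for Nars, Rars, Hars, Yars, Mars1, Eprs, Farsb and Yars2, and overlap for Farsa, Hars2, Sars2 and Cars2.

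The cytosolic phenylalanine enzyme is built of an alpha and a beta subunit, from Farsa and Farsb, and of these genes only Farsb fell. Farsb was at 10.08, 10.04, 10.05 and 10.13 in controls and at 9.68, 9.68, 9.62 and 9.64 in Grb2_cKO, a change of -0.42 (SE 0.06, adjusted p = 0.000757), and -0.40 with the covariate (adjusted p = 0.0588). Farsa was at 8.81, 8.73, 8.99 and 8.99 in controls and at 8.86, 8.90, 8.82 and 8.92 in Grb2_cKO. Its groups overlapped, and its change was -0.004 (95% interval -0.18 to 0.17, adjusted p = 0.977). With the covariate it was -0.12 (adjusted p = 0.677), nearer to Farsb. Within each embryo the log2 value of Farsb minus that of Farsa ranged over 1.06 to 1.31 among controls and 0.725 to 0.821 among Grb2_cKO embryos, with no overlap. Only the shift between the groups has a meaning here, since the probes differ, and it was not tested because the pair was singled out after its values were seen.

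Qars, the glutamine enzyme, was the other cytosolic gene that did not pass. It stood at 10.89, 10.89, 10.79 and 10.91 in controls and at 10.67, 10.76, 10.60 and 10.70 in Grb2_cKO, separate by 0.0222. The change was -0.19 (SE 0.07, 95% interval -0.33 to -0.04, adjusted p = 0.0623). Qars passed with array weights (adjusted p under 0.05 in limma), with a trended and robust spread, after median centring and without the dimmest 25% of genes. With the Y-linked covariate it was at -0.10 and did not pass (adjusted p = 0.667 in limma). Against control replicate 3 alone it was also at -0.10.

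Several cytosolic synthetases sit together in the multisynthetase complex, which also holds scaffold proteins without synthetase activity. Of 7 measured synthetase members of the complex 6 fell (Eprs, Iars, Lars, Mars1, Rars and Kars) and Qars did not pass. The median over the 7 was -0.47, and 2 of the 6 passed with the covariate. Among all genes 14.3% fell, and 18.9% of those passed with it. Aimp1, a scaffold gene, was at 8.37, 8.37, 8.29 and 8.36 in controls and at 7.90, 8.06, 7.83 and 7.80 in Grb2_cKO, a change of -0.45 (SE 0.07, adjusted p = 0.00155). With the covariate it stood at -0.40 (adjusted p = 0.101). Eef1e1, which encodes the scaffold protein AIMP3, was at -0.36 and did not pass (SE 0.14, adjusted p = 0.0804). The cytosolic genes outside the complex fell as well, with 11 of 12 called.

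Synthetases belong to 2 unrelated structural classes, which differ in the fold of the catalytic domain. Of class I genes 12 of 18 fell (median -0.32), and of class II genes 9 of 16 (median -0.29). With the covariate 4 of the 12 and 3 of the 9 passed. Among all genes 14.3% fell, and 18.9% of those passed with it. Eprs holds an enzyme of each class and was counted in neither. The difference between the classes was not tested.

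Among the mitochondrial genes Yars2, the tyrosine enzyme of the matrix, had the largest change. It was at 9.48, 9.33, 9.39 and 9.48 in controls and at 8.92, 8.78, 8.84 and 8.76 in Grb2_cKO. The groups were 0.416 apart and the change was -0.60 (SE 0.07, 95% interval -0.75 to -0.44, adjusted p = 0.000275). It was the only mitochondrial gene to pass with the covariate, at -0.56 (adjusted p = 0.031).

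Lars2, for leucine, fell from 8.45 ± 0.05 to 8.10 ± 0.07 (SD, n = 4 each), a change of -0.34 (adjusted p = 0.00318). Rars2, for arginine, fell from 9.16 ± 0.10 to 8.84 ± 0.06, a change of -0.33 (adjusted p = 0.00757). Tars2, for threonine, and Ears2, for glutamate, were called close to the threshold, at -0.23 and -0.20 (adjusted p = 0.044 and 0.047). The lowest control and the highest Grb2_cKO embryo were 0.0278 apart for Tars2 and 0.0666 apart for Ears2. Tars2 kept its call without Grb2_cKO replicate 4 and lost it without any of the other 7 embryos, and Ears2 kept its call without control replicate 1 and lost it without any of the others. Without one or more of these calls the mitochondrial count is 3 or 4.

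The other 11 mitochondrial genes had changes from -0.21 to 0.14 and did not pass. Iars2, for isoleucine, was at -0.21 (adjusted p = 0.127), with controls at 9.93, 9.92, 9.58 and 9.72 and Grb2_cKO at 9.50, 9.68, 9.57 and 9.57, and at 0.0018 with the covariate. Aars2, for alanine, and Mars2, for methionine, were separate between the groups by 0.0227 and 0.0723 without passing, at -0.18 and -0.16 (adjusted p = 0.0826 and 0.0894). Of the 11, Sars2, Pars2 and Cars2 had positive values, though Sars2 was at -0.0014 after median centring.

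Cars2, for cysteine, stood at 8.49, 8.55, 8.65 and 8.63 in controls and at 8.69, 8.64, 8.74 and 8.80 in Grb2_cKO, a change of 0.14 (95% interval -0.02 to 0.29, adjusted p = 0.18). Sars2, for serine, spread widely between controls, at 8.52, 8.70, 8.90 and 9.15, while the Grb2_cKO embryos lay between 8.83 and 8.92. Pars2, for proline, spread in the Grb2_cKO embryos instead, at 7.93, 8.40, 8.10 and 8.47, and its controls lay between 8.03 and 8.15. These spreads left 95% intervals of -0.20 to 0.33 for Sars2 and -0.16 to 0.37 for Pars2. The intervals of Fars2, Vars2, Wars2, Hars2 and Nars2 also held 0, with changes of -0.09, -0.06, -0.05, -0.04 and -0.02. Their lower bounds ran from -0.37 for Fars2 to -0.20 for Nars2.

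For 16 pairs of a cytosolic and a mitochondrial gene for the same amino acid, the difference of the log2 values within each embryo was compared between the groups by exact permutation (two-sided, 70 ways of assigning the embryos). The cytosolic gene had the more negative change in 14 of the 16 pairs, and in 8 pairs the differences did not overlap between the groups. Each of these 8 had p = 0.0286, the smallest the design allows, and an adjusted p of 0.0571 over the 16 pairs in the exact permutation test. None passed 0.05 after adjustment (8 at an unadjusted p under 0.05). With 16 pairs at least 10 would have to reach the smallest p for any to pass. The test took no Y-linked covariate, so genotype and sex-linked expression are not separated in these pairs. No share was counted over pairs of other genes.

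The shift was largest for cysteine, where the change of Cars minus that of Cars2 was -0.66 on the log2 scale. For asparagine, Nars against Nars2, it was -0.63. For histidine, Hars against Hars2, it was -0.57, and the log2 difference between them ranged over 0.821 to 1.21 among controls and 0.238 to 0.611 among Grb2_cKO embryos. The Hars and Hars2 genes lie next to each other, and are known to be transcribed in opposite directions from a shared promoter region. The other separate pairs were Eprs with Pars2 (-0.57), Vars with Vars2 (-0.45), Mars1 with Mars2 (-0.36), Rars with Rars2 (-0.30) and Wars with Wars2 (-0.26).

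For tyrosine, Yars and Yars2 both fell, and the shift between them was 0.04 (exact permutation p = 0.514, n = 4 each). For isoleucine, threonine and leucine the shifts were -0.09, -0.12 and -0.12, and the embryos overlapped. The phenylalanine gene Farsa, against Fars2, gave 0.08, and Farsb, against the same gene, -0.33 (exact permutation p = 0.714 and 0.114, n = 4 each). Pairs that share Eprs or Fars2 are not independent of each other.

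**Figure D3:**
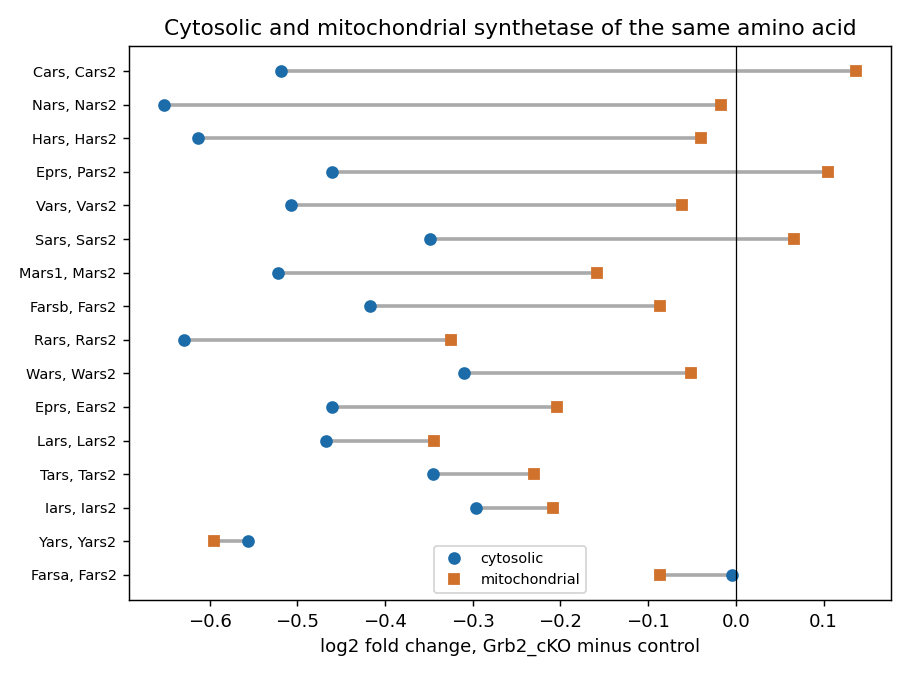
Log2 fold change (x axis, Grb2_cKO minus control, 4 embryos each) of the cytosolic gene (circle) and the mitochondrial gene (square) for 16 amino acid pairs, ordered by the difference. The circle lies to the left in 14 pairs, and for Yars with Yars2 both lie near -0.6.

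ATF4 is a transcription factor made when the kinases of eIF2alpha sense amino acid shortage or other stress, and it raises a set of cytosolic synthetase genes together with genes of amino acid synthesis and transport. All 11 measured synthetase genes of the ATF4-inducible list fell (median -0.47): Cars, Eprs, Gars, Iars, Lars, Mars1, Nars, Sars, Tars, Wars and Yars. Of the 8 other cytosolic genes 6 fell (median -0.51), and of all genes 14.3%. With the covariate 6 of the 11 inducible genes and 1 of the 8 others passed, with medians of -0.45 in both lists. Among all genes 2.76% were lower with it, and 18.9% of the lower calls without it passed. The difference between the lists was not tested.

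The promoter windows of 26 of the 35 genes, from 250 bases before to 50 after the start in RefSeq (GRCm38.p6), were searched on both strands. The other genes had no window in the search, which also left out a whole chromosome. Whether their promoters hold the motifs below is therefore not known here. The letters TGATGNAA, the core to which ATF4 binds with a CEBP partner, occurred in 4 of 26, all cytosolic and all of them lower: Gars, Iars, Tars and Yars. They occurred in 4 of the 7 ATF4-inducible synthetase genes with a window and in 4.51% of all genes with one. Of the 26 genes with a window 15 were called lower. The same letters occurred in 8 of 25 windows of the wider ATF4 amino acid response. Those 8 genes included some that fell, some that rose and some that were not called. The 4 stretches are shown 5′ to 3′ on the strand of the gene with the match, on either strand, in capitals, because these genes fell together.
Gars, chr6:55037935-55038000, plus strand: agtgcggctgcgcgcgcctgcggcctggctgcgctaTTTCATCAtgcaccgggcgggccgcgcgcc
Tars, chr15:11399659-11399709, minus strand: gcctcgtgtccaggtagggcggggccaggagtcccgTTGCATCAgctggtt
Iars, chr13:49682126-49682155, plus strand: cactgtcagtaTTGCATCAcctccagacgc
Yars, chr4:129189895-129189924, plus strand: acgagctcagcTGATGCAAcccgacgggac
The match begins 30 bases before the start in Gars and 15 before it in Tars, and at base 8 and base 4 of the transcript in Iars and Yars. A match describes the letters and does not show binding.

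These 4 genes differed in the size of their fall. Gars stood at 10.33, 10.44, 10.33 and 10.37 in controls and at 9.94, 9.87, 9.85 and 9.86 in Grb2_cKO, a change of -0.49 (SE 0.06). Tars was at 9.51, 9.30, 9.23 and 9.38 against 8.93, 9.09, 9.06 and 8.97, with 0.134 between the groups. Iars was at 11.69, 11.67, 11.58 and 11.71 against 11.34, 11.39, 11.37 and 11.37. Grb2_cKO embryos were lower than every control for each of them, Yars included.

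The rest of the ATF4 list went both ways. The 28 measured genes of the amino acid response had a median of -0.13, with 10 that fell, 5 that rose and 13 that missed the threshold. Thus 35.7% fell and 17.9% rose, beside 14.3% and 13.7% of all genes, so the share that rose was near that of all genes. Among those that fell, Mthfd2, a mitochondrial folate enzyme, fell by 0.86 (SE 0.10), Psat1 of serine synthesis by 0.73 (SE 0.10) and Slc7a1, a transporter of cationic amino acids, by 0.43 (SE 0.07). Cebpg, a partner of ATF4, fell by 0.44 (SE 0.06). The 5 that rose, named after their values were seen, were Ddit4 by 0.62, Nupr1 by 0.48, Atf5 by 0.42, Atf3 by 0.39 and Ddit3 by 0.29. Atf4 itself, also named after its values were seen, was at 8.42 ± 0.12 in controls and 8.27 ± 0.04 in Grb2_cKO and did not pass (-0.14, adjusted p = 0.194). With the covariate Atf4 was at -0.31 (adjusted p = 0.126). With the covariate 3 of the 10 lower and 0 of the 5 higher genes passed in limma. Among all genes 602 of 3179 lower and 611 of 3048 higher calls passed.

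Of 8 genes for eIF2alpha kinases, their partners and the phosphatase subunits 0 were called in limma (1 higher and 0 lower at an unadjusted p under 0.05, median 0.03). Among all genes 28.1% were called in either direction. Gcn1, a partner of the kinase that senses uncharged tRNA, was at 0.24 (adjusted p = 0.0906), and Eif2ak2, the kinase activated by double-stranded RNA, at -0.27 (adjusted p = 0.186). The phosphatase subunits Ppp1r15b and Ppp1r15a were at -0.16 and 0.15 (adjusted p = 0.146 and 0.247).

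MYC proteins activate genes for growth and bind the letters CACGTG. Mycn, the family member of the ureteric bud and nephron progenitors, was at 7.92, 8.01, 7.995 and 8.30 in controls and at 7.04, 7.07, 6.79 and 6.83 in Grb2_cKO. It fell by 1.13 (SE 0.10, adjusted p = 0.000102), and passed with the covariate at -1.07 (adjusted p = 0.015). Myc was at 9.87, 10.06, 10.38 and 10.34 in controls and between 9.87 and 10.05 in Grb2_cKO. It did not pass (-0.21, adjusted p = 0.21), nor did their partner gene Max (0.21, adjusted p = 0.0968), and Mycl fell by 0.22 (adjusted p = 0.0379). With the covariate Mycl lost its call (-0.14, adjusted p = 0.545), and Myc was at -0.44 (adjusted p = 0.168).

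CACGTG occurred in 4 of the 26 synthetase windows, those of Farsb, Iars, Tars and Ears2, and in 8.09% of all genes with a window. These 4 genes were among the 22 that fell, as were 15 of the 26 genes with a window. The match in Farsb begins 39 bases before the start and that in Iars 69 bases before it, and both stretches are shown because these matches lie before the start. Those in Tars and Ears2 begin at bases 20 and 22 of the transcript.
Farsb, chr1:78488898-78488972, minus strand: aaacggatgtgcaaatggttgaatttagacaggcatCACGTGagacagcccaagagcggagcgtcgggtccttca
Iars, chr13:49682025-49682102, plus strand: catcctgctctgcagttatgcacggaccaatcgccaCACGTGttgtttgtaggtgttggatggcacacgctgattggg
The Farsa window held neither of the motifs above, but held CCGGAAGT, a core bound by ETS factors, as did those of Mars1 and Rars2 (3 of 26, and 4.31% of all genes with a window).

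NRF1 is a transcription factor of many nuclear genes for mitochondrial proteins. Its core GCATGCGC occurred in the windows of 3 synthetase genes, all mitochondrial (3 of 14 mitochondrial and 0 of 12 cytosolic windows), and in 3.05% of all genes with one. The stretches are shown because only 1 of the 3 genes, Rars2, fell.
Rars2, chr4:34614870-34614949, plus strand: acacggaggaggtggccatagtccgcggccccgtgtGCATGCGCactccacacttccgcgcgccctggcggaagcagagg
Vars2, chr17:35667595-35667674, minus strand: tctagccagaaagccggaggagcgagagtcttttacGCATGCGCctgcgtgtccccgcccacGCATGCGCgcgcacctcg
Wars2, chr3:99140990-99141069, plus strand: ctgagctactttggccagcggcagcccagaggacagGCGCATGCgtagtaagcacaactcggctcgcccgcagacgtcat
Vars2 was at 8.27, 8.40, 8.43 and 8.55 in controls and at 8.40, 8.25, 8.36 and 8.39 in Grb2_cKO. Wars2 was at 8.004, 8.06, 8.05 and 8.11 against 7.88, 7.96, 8.01 and 8.17. Both genes overlapped between the groups, while Rars2, at 9.24, 9.24, 9.12 and 9.05 against 8.75, 8.84, 8.86 and 8.89, did not.

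Genes that make and modify tRNA moved mostly downwards as well. The median over 49 measured genes was -0.24, with 24 that fell and 2 that rose, and 6 of the 24 passed with the covariate. Thus 49.0% fell and 4.08% rose, beside 14.3% and 13.7% of all genes. Of all genes called lower 18.9% passed with the covariate. Osgep, which forms the threonyl-carbamoyl base next to the anticodon, fell by 0.78 (SE 0.08), and Pus7 and Pus1, which make pseudouridine, by 0.77 (SE 0.07) and 0.67 (SE 0.07). Tsen15, a subunit of the tRNA splicing endonuclease, fell by 0.76 (SE 0.08). These 4 genes passed with the covariate, at adjusted p-values of 0.0143 to 0.023.

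Among 9 other genes of tRNA charging 2 fell and 1 rose (22.2% and 11.1%), not far from the 14.3% and 13.7% of all genes. Qrsl1, part of the amidotransferase that makes mitochondrial glutaminyl-tRNA in place of a separate synthetase, was at 8.58, 8.51, 8.46 and 8.44 in controls and at 8.14, 8.03, 8.02 and 8.08 in Grb2_cKO, a change of -0.43 (SE 0.07, adjusted p = 0.00105). Sepsecs, which completes selenocysteine on its tRNA, fell by 0.36 (SE 0.09, adjusted p = 0.0152). Dtd2, which removes wrongly attached amino acids, rose by 0.37 (SE 0.12, adjusted p = 0.0402). Mtfmt, which formylates the mitochondrial initiator tRNA, did not pass (-0.20, adjusted p = 0.0987). With the covariate none of the 3 passed in limma, at -0.39, -0.15 and 0.53 (adjusted p = 0.0783, 0.577 and 0.132).

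Wars is also known as a gene induced by interferon. Of 12 interferon response genes 1 rose and 0 fell in limma (2 and 0 at an unadjusted p under 0.05, median 0.09). That is 8.33% higher, where 13.7% of all genes rose and 14.3% fell. The one that rose was B2m, the light chain of class I antigen-presenting molecules, by 0.35 (SE 0.07, adjusted p = 0.00347), and it lost its call with the covariate (0.26, adjusted p = 0.198). Wars itself fell, from 10.64, 10.83, 10.72 and 10.80 in controls to 10.38, 10.44, 10.47 and 10.46 in Grb2_cKO. With the covariate Wars did not pass in limma (-0.28, adjusted p = 0.195). A link between Wars and interferon was not tested.

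Markers of cell types and of division also changed, some lists downwards and others upwards. For comparison, 14.3% of all genes fell and 13.7% rose. With the covariate 602 of the 3179 lower and 611 of the 3048 higher calls among all genes passed. Proliferation genes fell in 21 of 22 cases, with a mean over the list of 11.19 to 11.26 in controls and 10.55 to 10.79 in Grb2_cKO. Ureteric tip genes fell in 9 of 11 cases (8.89 to 9.17 against 7.43 to 7.81) and nephron progenitor genes in 9 of 11 (9.95 to 10.12 against 8.79 to 9.26). Stromal genes rose in 10 of 11 cases (10.45 to 10.68 against 11.10 to 11.29). Macrophage genes rose in 7 of 10 (7.30 to 7.53 against 8.18 to 8.58), endothelial genes in 6 of 10 (9.72 to 9.78 against 9.97 to 10.22) and erythroid genes in 4 of 6 (6.72 to 7.37 against 7.64 to 8.08). With the covariate the calls that passed were 11 of 21 for proliferation, 8 of 9 for the ureteric tip, 5 of 9 for nephron progenitors, 4 of 10 for stroma, 4 of 7 for macrophages, 0 of 6 for endothelium and 1 of 4 for erythroid genes (limma). The part of these shifts in the fall of the synthetase genes was not tested.

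The lists differed in how evenly they moved among the Grb2_cKO embryos. As a mean deviation from the gene means over all 8 embryos, the cytosolic list stood at -0.179, -0.206, -0.259 and -0.234 in Grb2_cKO replicates 1 to 4. For the same embryos in that order the nephron progenitor list stood at -0.256, -0.269, -0.732 and -0.714. The proliferation list was at -0.215, -0.152, -0.335 and -0.390. In the controls the cytosolic list was at 0.234, 0.227, 0.184 and 0.233, lowest in replicate 3. The mitochondrial list was at -0.116, -0.077, -0.065 and -0.015 in Grb2_cKO and at 0.038 to 0.097 in controls.

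**Figure D4:**
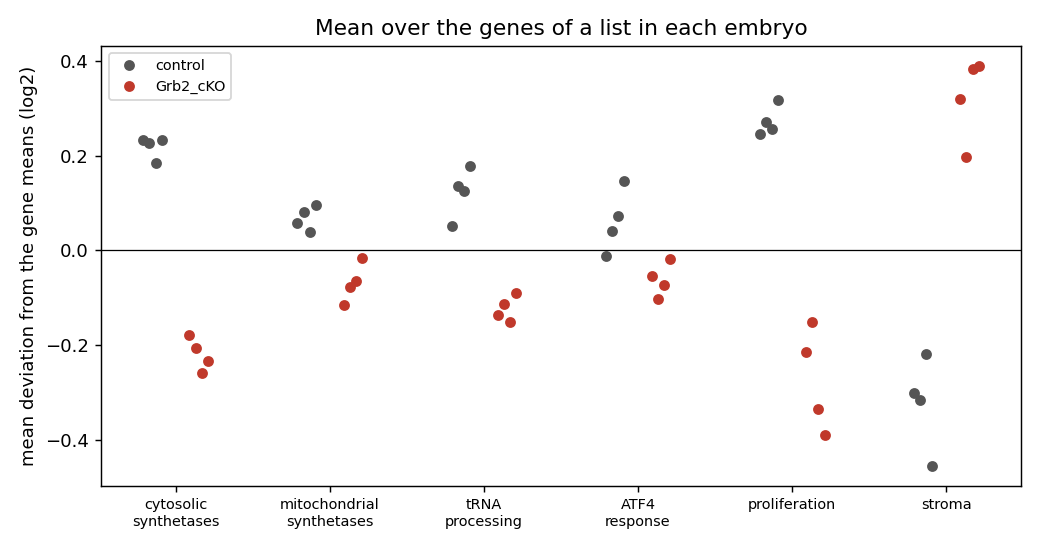
Mean deviation (log2, y axis) of each embryo from the gene means over all 8 embryos, averaged over the genes of 6 lists, for control (grey) and Grb2_cKO (red) embryos. The cytosolic synthetase points lie at 0.184 to 0.234 in controls and at -0.259 to -0.179 in Grb2_cKO, the mitochondrial points lie closer to 0, and the stroma list goes the other way.

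With control replicate 3 as the only control, the embryo whose Y-linked values resembled those of Grb2_cKO, 19 of 19 cytosolic and 12 of 16 mitochondrial genes were negative, and the median over the 35 was -0.28. That fit has 1 control embryo, assumed to vary as the Grb2_cKO embryos do, and called 0 of the 35 genes lower in limma, against 0.541% of all genes (120 of 22180). At an unadjusted p under 0.05, 17 of the 35 were lower, against 11.0% of all genes.

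**Figure D5:**
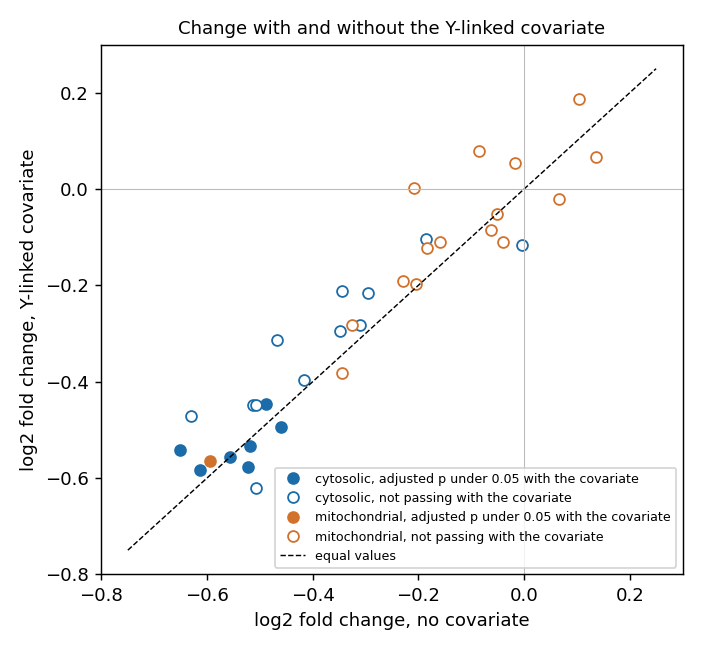
Log2 fold change of the 35 synthetase genes without a covariate (x axis) and with the Y-linked level as covariate (y axis); the dashed line marks equal values and filled points passed an adjusted p of 0.05 with the covariate. The 8 filled points, 7 cytosolic and 1 mitochondrial, all lie below -0.4 on both axes.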

How the data were processed

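RNA of 8 embryonic kidney samples was measured on arrays. The log2 probe-set values used were processed and deposited by the authors with the Transcriptome Analysis Console, per the submitters' processing notes. The sources used here give no version, background correction or normalization, and no value was normalized again. That the scale is log2 was read from the values (1.25 to 14.08). No detection calls or batch records were used, so dim probe sets and batches could not be tested, and the number of arrays limits the precision. Replicate numbers follow the order of the sample records.

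In the annotation used, 23521 of 41345 probe sets carry 1 gene symbol, 1814 carry several and 16010 carry none. Symbols were updated by Entrez identifier to the RefSeq table of GRCm38.p6. For each gene the probe set with the highest mean over the 8 arrays was used. Of the synthetase genes only Nars2 had more than 1 probe set.

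Groups were compared in limma 3.58.1 (R 4.3.3), with empirical Bayes moderation, no covariate and Benjamini-Hochberg adjustment over 22180 genes. The fit was tested on simulated data. Each embryo is a separate animal of 1 litter. Genes named are all synthetase genes and, of each other list, up to 4 of smallest p, with 6 more genes of the ATF4 list named after their values were seen. The synthetase genes, the lists and the motifs were chosen with earlier results of these data known. Alternatives were quantile normalization, median centring, leaving out the dimmest 25% of genes, array weights, the mean over probe sets, a robust spread with a trend, thresholds of 0.01 and 0.10, the Y-linked covariate, control replicate 3 alone and leaving out each embryo.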

Additional observations from a re-analysis of the deposited data

Results flagged for a closer look

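In 180 groups of 4 values (35 synthetase genes and up to 4 genes of smallest p from each other list, sex-linked genes left out, in each group), 9 had 1 embryo far from the other 3, with a gap above 0.829 of the range. Chance gives about 1 in 20. Grb2_cKO replicate 1 was high for Mars1 (9.02, the others 8.89 to 8.90), Vars (9.60, the others 9.36 to 9.37) and Sars (10.29, the others 10.04 to 10.06), which all fell as a group. Control replicate 3 was low for Lars (9.84, the others 10.03 to 10.05), for Pars2 (8.03, the others 8.15) and for the scaffold gene Aimp1 (8.29, the others 8.36 to 8.37). Control replicate 1 was high for Hars (9.83, the others 9.72 to 9.74). Among other genes, the stromal gene Foxd1 was low in Grb2_cKO replicate 2 (9.36, the others 9.76 to 9.82) and the macrophage gene Cd68 was low in control replicate 2 (7.94, the others 8.21 to 8.27).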

How the results depend on the processing

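No paired analysis was possible because the replicate numbers only follow the order of the records. With any 1 embryo left out the cytosolic count was 17, and the mitochondrial count ran from 3 to 4. At an adjusted p under 0.01 the counts were 16 cytosolic and 3 mitochondrial, without Sars, Tars2 and Ears2. With the Y-linked covariate 8 genes were lower, 7 cytosolic and 1 mitochondrial, and with control replicate 3 alone 0, 0 and 0. The median over the 35 genes, -0.33, was -0.30 after quantile normalization, -0.39 after median centring (which moved the median of all genes from 0.0058 to -0.06), -0.28 with the covariate and -0.28 with control replicate 3 alone, and -0.34 to -0.30 with any 1 embryo left out. The cause of these shifts was not tested. All 22 called genes kept their sign in every alternative run. With the covariate 3178 of the 3179 lower genes in all did so, and the other runs were not counted for all genes. Signs turned only among genes that were not called. After quantile normalization Farsa was at 0.014 and Nars2 at 0.013, after median centring Sars2 was at -0.0014, and with the mean of probe sets Nars2 was at 0.0496. With the covariate Fars2 was at 0.0782, Iars2 at 0.0018, Nars2 at 0.0548 and Sars2 at -0.021, and with control replicate 3 alone Fars2 was at 0.0765, Nars2 at 0.0531 and Sars2 at -0.0161. Leaving out each embryo gave ranges that crossed 0 for Farsa (-0.0554 to 0.0323), Fars2 (-0.18 to 0.0035), Hars2 (-0.0818 to 0.0131), Nars2 (-0.059 to 0.030), Sars2 (-0.0329 to 0.176) and the shift of Farsa against Fars2 (-0.0299 to 0.214). Without detection calls, a synthetase probe set near background cannot be told from an expressed one.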
